A study of Caenorhabditis elegans with 7 samples.

Results

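Small RNAs that cross splice junctions were compared between embryos of 2 Caenorhabditis elegans mutants, each in a gene for a protein of the U2 snRNP. The compared libraries are mog-2(ok1221) 1 and rnp-3(ok1424) 1, with 1 library for each genotype and both from experiment 1. They are 2 of the 7 libraries of the study and were taken by genotype and experiment number, not by a measured value. The other libraries are rnp-2(mg582) 1 and 2, rnp-2(tm4058) 2, and wildtype 1 and 2, where the number is that of the experiment. All 5 genotypes have the N2 background. They were kept at 20 °C unless stated otherwise, embryos were freed from adults with alkaline hypochlorite, and small RNA was cut from a gel. The labels do not say whether the mutant embryos were homozygous, what the alleles remove, or whether libraries came from separate cultures. A p-value below stands against the spread between libraries of 1 genotype from different experiments. That spread includes any difference between the experiments, and how far it includes variation between cultures is not known.

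The U2 snRNP is the small nuclear RNA-protein particle that pairs with the branch site near the end of an intron, after the U1 snRNP has marked the start. MOG-2 resembles the A' protein and RNP-3 the B'' protein of that particle, which together bind a stem-loop of the U2 RNA. RNP-2 resembles the A protein of the U1 snRNP and is a close relative of RNP-3. In this worm mog-2 is also known for its part in the switch from sperm to oocytes in the hermaphrodite germline. Embryos hold small RNAs, mostly antisense to genes, that Argonaute proteins carry in RNA interference and in germline gene surveillance. Because RNA-dependent RNA polymerases copy them from a transcript, a small RNA can cross a joined exon pair (read here as spliced) or the border of an intron and an exon (unspliced).

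The mog-2(ok1221) library held 13068321 reads, of which 232717 were listed at spliced and 20300 at unspliced junctions. The rnp-3(ok1424) library held 9901228 reads, with 186464 spliced and 14886 unspliced. Junction reads of the other libraries ran from 73843 spliced and 6657 unspliced in rnp-2(tm4058) 2 to 474217 and 36892 in wildtype 2. Levels are given as scaled CPM, reads scaled to the library total and divided by a TMM factor, and differences as log2 of mog-2(ok1221) over rnp-3(ok1424) on the log2(scaled CPM + 0.5) scale, which understates the change of low genes. Spliced small RNAs of rnp-3 itself had 11 reads in mog-2(ok1221) and 0 in rnp-3(ok1424), too few to serve as a check of the labels. Against a floor of 3 reads for the library at 0, the level was at least 3.16-fold higher in mog-2(ok1221). The remaining libraries had 1, 2 and 2 such reads in rnp-2(mg582) 1, rnp-2(mg582) 2 and rnp-2(tm4058) 2, and 5 and 8 in wildtype 1 and 2. The difference did not pass (limma, adjusted p = 0.0847), and it did in the fit with the experiment as a block (adjusted p = 0.0123, with a range of 0.0123 to 1 over the alternatives). The mog-2 gene was not analysed here.

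The mutants differed from each other in spliced small RNAs about as much as mog-2(ok1221) differed from wildtype, and rnp-3(ok1424) was the closer of them to wildtype. Over 3551 genes the median size of the log2 difference was 0.29 between mog-2(ok1221) and rnp-3(ok1424), 0.28 between mog-2(ok1221) and wildtype 1, and 0.23 between rnp-3(ok1424) and wildtype 1. Libraries of 1 genotype from different experiments had smaller values, 0.21 for the rnp-2(mg582) pair and 0.18 for the wildtype pair. A difference of 4-fold or more between mog-2(ok1221) and rnp-3(ok1424) was seen at 29 genes (0.817% of those tested), 18 higher in mog-2(ok1221) (0.507%) and 11 higher in rnp-3(ok1424) (0.31%). The same threshold was passed by 36 genes between mog-2(ok1221) and wildtype 1, 10 between rnp-3(ok1424) and wildtype 1, 0 in the rnp-2(mg582) pair and 1 in the wildtype pair. Of the 29 genes, mog-2(ok1221) was farther from the wildtype mean at 21 and rnp-3(ok1424) at 8. Of the 258 genes with a 2-fold difference or more, the numbers were 184 and 74. Tested against the 2 wildtype libraries, 77 genes passed in mog-2(ok1221), 36 higher and 41 lower, and 7 passed in rnp-3(ok1424), 6 higher and 1 lower. These counts share the wildtype libraries and are given side by side.

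**Figure D1:**
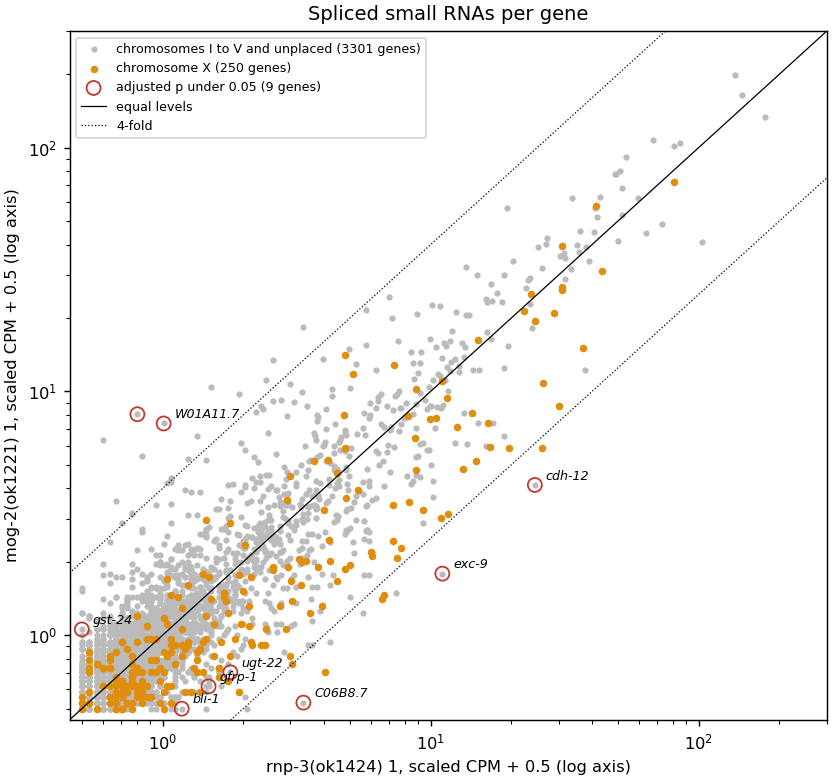
Spliced small RNA level of each of 3551 tested genes in mog-2(ok1221) 1 (vertical) and rnp-3(ok1424) 1 (horizontal), as scaled CPM + 0.5 on log axes; the dotted lines mark a 4-fold difference and the red circles the 9 genes that passed, 8 of them with their names. Most genes lie near the line of equal levels, and genes of chromosome X (orange) lie mostly below it.

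In the direct test 9 of 3551 genes passed (limma, Benjamini-Hochberg adjusted p under 0.05; 0.253% of those tested), 3 higher in mog-2(ok1221) and 6 lower. At an unadjusted p under 0.05 there were 603 genes (17%), 318 higher (8.96%) and 285 lower (8.03%). With the experiment as a replicate block 396 genes passed (11.2%), 194 higher (5.46%) and 202 lower (5.69%), and all 9 were among them. The spread comes from the wildtype and rnp-2(mg582) pairs, with 2 residual degrees of freedom (1 with the block), and the single libraries are assumed to vary like those pairs. When any of the other 5 libraries was left out, 0 genes passed (limma), with 472 to 582 at an unadjusted p under 0.05. With library size alone in place of the TMM factor 2 genes passed. On the reads themselves edgeR's quasi-likelihood test called 7 genes and DESeq2 51, of which 3 and 4 were among the 9.

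Of the 3 genes that rose in mog-2(ok1221), 2 are described here, W01A11.7 and gst-24. W01A11.7 (WBGene00020912, WBcel235 chromosome V, 6504540 to 6505389) had 6.89 scaled CPM (235 reads) in mog-2(ok1221) and 0.509 (15 reads) in rnp-3(ok1424). The rnp-2 mutants had 0.151 to 0.323 and the wildtype libraries 0.592 and 0.237, so that mog-2(ok1221) alone stood high (log2 difference 2.87, SE 0.37, limma adjusted p = 0.0391). The glutathione S-transferase gene gst-24 had 19 spliced reads in mog-2(ok1221) and 0 in each of the other 6 libraries, a level at least 5.47-fold higher than in rnp-3(ok1424) with a floor of 3 reads (limma adjusted p = 0.0391).

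The 6 genes that fell in mog-2(ok1221) were C06B8.7, exc-9, cdh-12, ugt-22, gfrp-1 and bli-1. The cadherin gene cdh-12 (WBGene00022103, chromosome III, 1152044 to 1181147) encodes a cell adhesion protein of the cadherin family. It had 3.63 scaled CPM (124 reads) in mog-2(ok1221) and 24.0 (706 reads) in rnp-3(ok1424). It had 20.4, 16.3 and 14.6 in rnp-2(mg582) 1, rnp-2(mg582) 2 and rnp-2(tm4058) 2, against 25.5 and 19.7 in wildtype 1 and 2. The mog-2(ok1221) library was below all the others, among which rnp-3(ok1424) lay between the wildtype values (log2 difference -2.57, SE 0.35, limma adjusted p = 0.0394). The gene exc-9 (WBGene00017644, chromosome IV, 7939807 to 7941019) encodes a small LIM-domain protein needed for the shape of the excretory canal. It had 1.29 scaled CPM (44 reads) in mog-2(ok1221) and 10.6 (311 reads) in rnp-3(ok1424), and 1.99 to 6.30 in the rnp-2 mutants, against 7.57 and 6.72 in wildtype 1 and 2. Here mog-2(ok1221) was the lowest of the 7 libraries and rnp-3(ok1424) the highest (log2 difference -2.63, SE 0.37, limma adjusted p = 0.0476).

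C06B8.7 (WBGene00007372, chromosome V, 15498734 to 15511421) had 1 spliced read in mog-2(ok1221) and 84 in rnp-3(ok1424), a level 97.3-fold higher in rnp-3(ok1424) with a counting interval of 17 to 3890. The remaining libraries had 0.745 to 1.61 scaled CPM of it, between the 0.0293 of mog-2(ok1221) and the 2.85 of rnp-3(ok1424). The other 3 genes were low in every library and highest in rnp-3(ok1424). The UDP-glucuronosyltransferase gene ugt-22 had 7 reads in mog-2(ok1221) and 38 in rnp-3(ok1424), with 0 or 1 in each of the other 5. The gene gfrp-1 had 4 reads in mog-2(ok1221) and 29 in rnp-3(ok1424), with 0 to 3 in the others. The cuticle collagen gene bli-1 had 0 reads in mog-2(ok1221), 20 in rnp-3(ok1424) and 0 in the other 5 libraries, which puts it at least 7.72-fold higher in rnp-3(ok1424) with a floor of 3 reads. In these 3 genes and in gst-24 the wildtype and rnp-2(mg582) pairs on which the spread rests were at or near 0. All of these genes, ugt-22, gfrp-1, bli-1 and gst-24, met the minimum of total reads only through the library where they were high. That they passed is therefore no support for a difference beyond the read counts themselves.

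Beyond the genes that passed, the largest differences at well covered genes were taken by rule, 10 in each direction. Of these 20, 4 passed, and all 20 passed with the experiment as a block. Because the genes were chosen for the difference between the compared libraries, these counts and the ranks below follow in part from the choice. Among the 10 higher in mog-2(ok1221), that library was the highest of all 7 at 8 genes and rnp-3(ok1424) the lowest at 7. They include R102.4, with 198 reads in mog-2(ok1221) and 3 in rnp-3(ok1424), a 57.0-fold higher level with a counting interval of 19.2 to 279. The gene rimb-1, for a RIM-binding protein of presynaptic sites, had 9.97 scaled CPM in mog-2(ok1221) and 1.02 in rnp-3(ok1424), with 4.64 to 6.72 in the rnp-2 mutants and 2.18 and 4.40 in wildtype 1 and 2. The linker histone gene hil-8 had 12.99 scaled CPM in mog-2(ok1221) and 2.07 in rnp-3(ok1424). The rnp-2 mutants had 9.85 to 14.8 of hil-8 and the wildtype libraries 11.5 and 10.2. For hil-8 the rnp-3(ok1424) library was therefore the one apart (log2 difference 2.39, SE 0.36, limma adjusted p = 0.0550). The gene mif-2, for a protein like macrophage migration inhibitory factor, had 6.04 scaled CPM in mog-2(ok1221) and 0.849 in rnp-3(ok1424), against 2.02 and 3.27 in wildtype 1 and 2.

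Among the 10 higher in rnp-3(ok1424), that library was the highest of the 7 at 8 genes and mog-2(ok1221) the lowest at 7. The tetraspanin gene tsp-14 had 0.967 scaled CPM (33 reads) in mog-2(ok1221) and 6.22 (183 reads) in rnp-3(ok1424). It had 6.23, 6.81 and 7.62 in rnp-2(mg582) 1, rnp-2(mg582) 2 and rnp-2(tm4058) 2 and 8.10 and 8.01 in wildtype 1 and 2, so mog-2(ok1221) was the one apart (log2 difference -2.19, SE 0.35, limma adjusted p = 0.0550). The gene plr-1, whose membrane ubiquitin ligase lowers Wnt receptors at the cell surface, had 0.997 scaled CPM in mog-2(ok1221) and 6.93 in rnp-3(ok1424), against 5.65 and 3.08 in wildtype 1 and 2. The gene mai-1, for an inhibitor of the mitochondrial ATPase, had 2.64 scaled CPM in mog-2(ok1221) and 11.1 in rnp-3(ok1424), with 3.83 to 4.72 in the rnp-2 mutants and 10.6 and 6.80 in wildtype 1 and 2. F52D2.12 had 5.34 scaled CPM in mog-2(ok1221) and 25.6 in rnp-3(ok1424), with 0.331 to 1.36 in the rnp-2 mutants and 8.67 and 11.7 in wildtype 1 and 2. Its order, rnp-3(ok1424) above wildtype above mog-2(ok1221) above the rnp-2 mutants, was also that of R04A9.3, at 2.52 in mog-2(ok1221), 10.4 in rnp-3(ok1424), 0.693 to 1.13 in the rnp-2 mutants and 8.49 and 5.39 in wildtype 1 and 2.

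**Figure D2:**
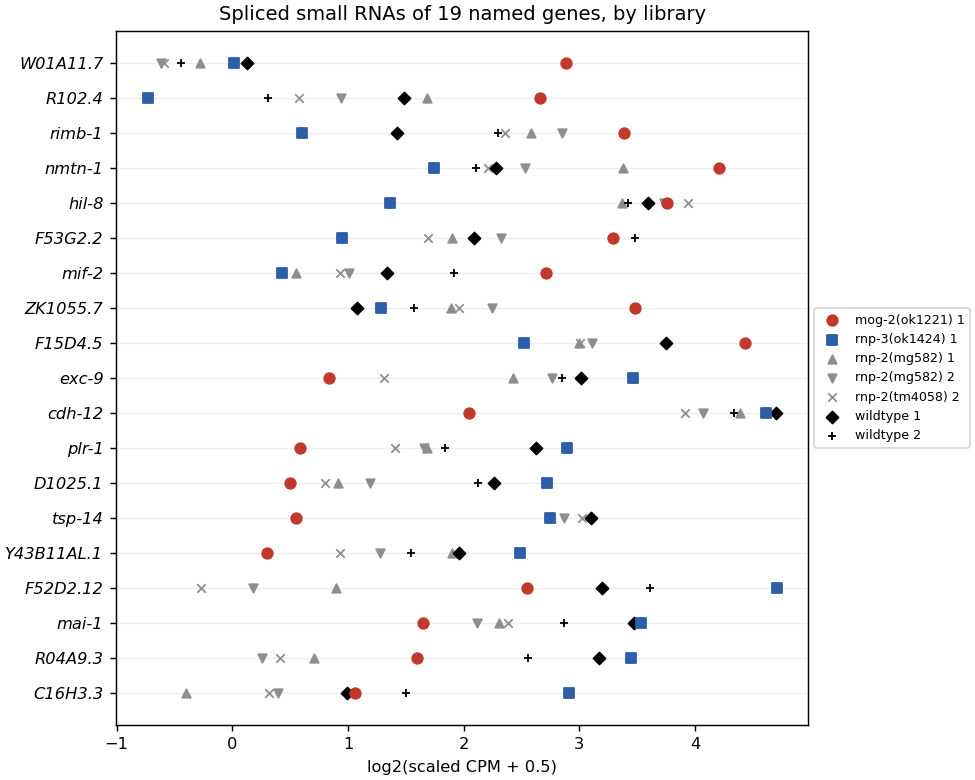
Spliced small RNA level of 19 of the 20 genes named by rule, as log2(scaled CPM + 0.5), with 1 point for each of the 7 libraries; the upper 9 genes are higher in mog-2(ok1221) and the lower 10 higher in rnp-3(ok1424). At hil-8 and tsp-14 only 1 of the compared mutants is away from the remaining libraries, rnp-3(ok1424) and mog-2(ok1221) in turn.

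Of the 10 genes named as higher in rnp-3(ok1424), 6 lie on chromosome X, which led to a look at the whole chromosome after the values had been seen. In C. elegans, hermaphrodites have a pair of X chromosomes and males a single one, and a dosage compensation complex lowers X transcription in hermaphrodite embryos. X-linked genes made up 9.94% of the spliced small RNA reads in mog-2(ok1221) (exact 95% binomial interval 9.82 to 10.1) and 15.2% in rnp-3(ok1424) (15.0 to 15.4). The share was 10.1%, 9.13% and 9.34% in rnp-2(mg582) 1, rnp-2(mg582) 2 and rnp-2(tm4058) 2, against 13.1% and 11.8% in wildtype 1 and 2. The mog-2(ok1221) share thus lay among those of the rnp-2 mutants and below both wildtype libraries, and the rnp-3(ok1424) share above both. The gap of mog-2(ok1221) and rnp-3(ok1424) was wider than that within the wildtype or the rnp-2(mg582) pair. Without the 10 X-linked genes that had most spliced reads, the share was 5.34% in mog-2(ok1221) and 10.01% in rnp-3(ok1424).

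Gene by gene, the median log2 difference of the 250 X-linked genes tested was -0.35, against 0.04 over 3297 genes of the other chromosomes, whose own medians ran from -0.00 to 0.08. A 2-fold difference or more was seen at 3 X-linked genes in the direction of mog-2(ok1221) and at 51 (20.4%) in that of rnp-3(ok1424). Over all genes tested, the shares past 2-fold were 3.24% higher in mog-2(ok1221) and 4.03% higher in rnp-3(ok1424). Of the X-linked genes, 0 passed the test in either direction (limma), with 9 higher (3.60%) and 85 lower (34%) at an unadjusted p under 0.05, against 8.96% and 8.03% over all genes. By edgeR 1 was lower and by DESeq2 14. There were 5 higher (2%) and 65 lower (26%) in mog-2(ok1221) that passed with the experiment as a block, against 5.46% and 5.69% over all genes. The X median stayed negative under all alternatives run, from -0.94 with DESeq2 to -0.23 with a pseudocount of 1. In the wildtype pair the X median was 0.07 and in the rnp-2(mg582) pair 0.00.

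Against wildtype 1, the X median was -0.24 in mog-2(ok1221), 0.11 in rnp-3(ok1424) and -0.32 in rnp-2(mg582) 1. Against wildtype 2 it was -0.21 in rnp-2(mg582) 2 and -0.24 in rnp-2(tm4058) 2. These values share their wildtype library within an experiment. The 50 X-linked genes whose CPM averaged 5 or more had a median of -0.46, and 20 of them were 2-fold or more lower in mog-2(ok1221) and 2 higher. At the same mean CPM, the 299 genes of the other chromosomes had a median of 0.15, with 32 lower and 43 higher by 2-fold or more. The X-linked genes with most spliced small RNA went both ways. C24H10.4 had 71.6 scaled CPM in mog-2(ok1221) and 80.6 in rnp-3(ok1424). The histone demethylase gene jmjd-3.1 had 30.8 and 42.9 in that order of libraries. F02C12.3, at 56.9 and 41.0, and T22B2.2, at 39.1 and 30.5, were higher in mog-2(ok1221). The 3 X-linked genes past 2-fold in the direction of mog-2(ok1221) were F39F10.2, K09E9.3 and R09H3.3, named here after their values were seen. R09H3.3 had 465 reads in mog-2(ok1221) and 126 in rnp-3(ok1424).

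**Figure D3:**
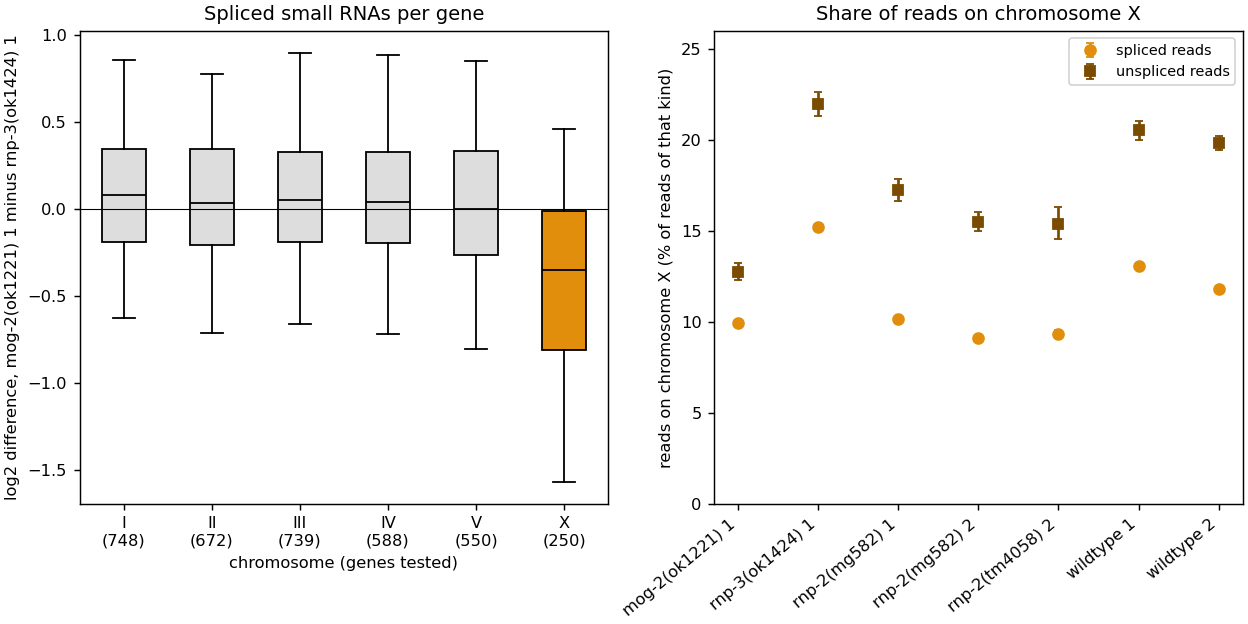
Left, log2 difference in spliced small RNA level (mog-2(ok1221) 1 minus rnp-3(ok1424) 1) for the tested genes of each chromosome, with boxes from the lower to the upper quartile, the median as a line and whiskers from the 5th to the 95th percentile. Right, share of each library's spliced and unspliced junction reads on chromosome X, with exact 95% binomial intervals; rnp-3(ok1424) is the highest of the 7 in both kinds, and mog-2(ok1221) lies among the rnp-2 mutants in spliced reads and lowest in unspliced reads.

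Of 299 tested members of the lists of genes grouped by function, 1 passed in the direct test (limma), with 25 higher (8.36%) and 22 lower (7.36%) in mog-2(ok1221) at an unadjusted p under 0.05, near the 8.96% and 8.03% over all genes. With the block 18 were higher (6.02%) and 15 lower (5.02%), also near the 5.46% and 5.69% over all genes, which are the shares to set beside the block counts of each list. Of the same members 1 higher passed by edgeR, and 2 higher and 3 lower by DESeq2. The median log2 difference over all genes was 0.01, and the lists' medians are set against it. Of 9 genes for U2 snRNP and branch site factors, 6 were higher and 3 lower in mog-2(ok1221), with a median of 0.07 and 0 that passed (1 higher with the block). Of 14 genes for U1, U4/U6.U5 and Sm proteins, 10 were higher, and of 18 other splicing factors 14 were higher, with medians of 0.26 and 0.28 and 0 that passed in either fit. Of 51 RNA interference factors, 29 were higher and 21 lower, with a median of 0.05 and 0 that passed (3 higher with the block). Of 27 oocyte and maternal genes, 18 were lower, with a median of -0.12 and 0 that passed (2 lower with the block). Of 19 targets of ERGO-1, the Argonaute of an embryonic small RNA class, 9 were higher and 10 lower. Their median was -0.09, and 0 passed (2 lower with the block). Those 2 were F39F10.4, with 94 reads in mog-2(ok1221) and 262 in rnp-3(ok1424), and F52D2.6, with 52 and 109 in that order. Both are X-linked. F55C9.3 went the other way, with 922 reads in mog-2(ok1221) and 481 in rnp-3(ok1424).

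MOG-2 acts in germline sex determination. Of 16 genes listed for that pathway, 9 were higher and 7 lower in mog-2(ok1221), with a median of 0.09. Of these, 0 passed in the direct test, and with the block 2 did, both lower. The gene xol-1 is the switch that reads the X signal and sets sex and dosage compensation. It had 1.93 scaled CPM in mog-2(ok1221) and 6.73 in rnp-3(ok1424), with 3.56 to 4.04 in the rnp-2 mutants and 9.63 and 11.2 in wildtype 1 and 2 (log2 difference -1.57, SE 0.36, limma adjusted p = 0.0884). The gene sdc-1 encodes a zinc-finger protein of sex determination and dosage compensation. It had 0.205 scaled CPM in mog-2(ok1221) and 3.53 in rnp-3(ok1424), with 0.151 to 0.579 in the rnp-2 mutants and 1.88 and 4.48 in wildtype 1 and 2 (log2 difference -2.52, SE 0.49, limma adjusted p = 0.0771). For sdc-1 the rnp-3(ok1424) level lay between the wildtype values, and the mog-2(ok1221) level lay among the rnp-2 mutants. Both genes are X-linked.

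Of 21 collagen and cuticle genes, 0 passed as higher in mog-2(ok1221) and 1, bli-1, as lower, with a median of 0.13. With the block 5 were higher and 2 lower (5.46% and 5.69% over all genes), among them col-45, with 100 reads in mog-2(ok1221) and 13 in rnp-3(ok1424), and cutl-15, with 89 and 25. Of 58 F-box genes, which include close copies whose reads cannot be told apart, 21 were higher and 37 lower, with a median of -0.08 and 0 that passed (4 higher and 2 lower with the block). Of 31 MATH and BTB genes, a family that is also rich in close copies, 17 were higher and 13 lower, with a median of 0.07 and 0 that passed (2 in each direction with the block). The 20 ribosomal protein genes had a median of 0.04, and 0 passed in either fit. With library size alone the MATH and BTB median was -0.00 and the ribosomal one -0.03. Of 6 histone genes 5 were lower in mog-2(ok1221) and 0 passed, and hil-8 was the member that was higher. Markers of other cell types were few. The summed scaled CPM of 6 oocyte and early embryo markers was 7.06 in mog-2(ok1221) and 7.20 in rnp-3(ok1424). That of 3 sperm markers was 2.93 and 1.97, against 3.57 and 2.91 in wildtype 1 and 2. The sperm sum rested on 100 reads in mog-2(ok1221) and 58 in rnp-3(ok1424), of which spe-47 alone held 51 and 14. For 4 neuron markers the summed scaled CPM was 15.0 in mog-2(ok1221) and 36.8 in rnp-3(ok1424). Nearly all of it came from the X-linked gene unc-10, for a presynaptic RIM protein, at 498 and 1072 reads. The 2 markers of the zygotic embryo summed to 0.0586 and 0.408, the 2 of muscle to 0.791 and 1.73, bli-1 was the 1 hypodermis marker listed, and 0 intestine markers were listed. These are levels of small RNA, not of mRNA, and the part that cell types or stages take in the differences was not tested.

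Unspliced reads were a slightly larger part of the junction reads in mog-2(ok1221), 8.02% (exact 95% binomial interval 7.92 to 8.13), than in rnp-3(ok1424), 7.39% (7.28 to 7.51). The rnp-2 mutants had 8.04%, 8.58% and 8.27% in rnp-2(mg582) 1, rnp-2(mg582) 2 and rnp-2(tm4058) 2, against 7.30% and 7.22% in wildtype 1 and 2. The mog-2(ok1221) share was just below those of the rnp-2 mutants, and the rnp-3(ok1424) share just above those of wildtype. The intervals cover counting error only, and with 1 library a side the difference has no replicate check. Of the unspliced reads, 47.1% in mog-2(ok1221) and 45.2% in rnp-3(ok1424) were at the donor end of the intron. X-linked genes held 12.8% of the unspliced reads in mog-2(ok1221) and 21.99% in rnp-3(ok1424), with 15.4% to 17.3% in the rnp-2 mutants and 20.6% and 19.8% in wildtype 1 and 2.

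In the test of unspliced reads per gene, 3 of 489 genes passed (limma; 0.613% of those tested), all higher in mog-2(ok1221). At an unadjusted p under 0.05 58 genes were higher and 61 lower, and with the replicate block 126 passed (25.8%), 67 higher and 59 lower. A 4-fold difference or more was seen at 5 genes (1.02%), 4 of them higher in mog-2(ok1221) (0.818%) and 1 in rnp-3(ok1424) (0.204%). A 2-fold difference or more was seen at 20 genes in the direction of mog-2(ok1221) (4.09%) and 11 in that of rnp-3(ok1424) (2.25%). Of these 31 genes, mog-2(ok1221) was the farther from the wildtype mean at 27 and rnp-3(ok1424) at 4. Against the wildtype libraries 44 genes passed in mog-2(ok1221), 31 higher and 13 lower, and 0 in rnp-3(ok1424) (limma; 59 at an unadjusted p under 0.05).

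The bestrophin family gene best-25 (WBGene00014102, chromosome I, 14205717 to 14208726), from a family of chloride channels, had 12.8 scaled CPM (435 reads) of unspliced small RNA in mog-2(ok1221) and 1.26 (37 reads) in rnp-3(ok1424). It had 4.36, 2.41 and 2.57 in rnp-2(mg582) 1, rnp-2(mg582) 2 and rnp-2(tm4058) 2, against 0.490 and 0.501 in wildtype 1 and 2 (log2 difference 2.92, SE 0.45, limma adjusted p = 0.0331). All of its reads lay at 1 donor site, and it had 0 spliced reads in all 7 libraries. C04G2.10 (WBGene00007309, chromosome IV, 10115442 to 10118118) had 4.43 scaled CPM (151 reads) in mog-2(ok1221) and 0.204 (6 reads) in rnp-3(ok1424), with 1.10 to 1.90 in the rnp-2 mutants and 0.224 and 0.435 in wildtype 1 and 2 (log2 difference 2.81, SE 0.36, limma adjusted p = 0.0209). Its spliced level was low in both compared mutants, 2.58 scaled CPM in mog-2(ok1221) and 1.29 in rnp-3(ok1424). It was 9.59 to 13.3 in the rnp-2 mutants and 14.7 and 11.7 in wildtype 1 and 2. The gene osm-9 (WBGene00003889, chromosome IV, 3551090 to 3557431) encodes a TRPV channel of sensory neurons. It had 78 unspliced reads in mog-2(ok1221) and 1 in rnp-3(ok1424), a 67.3-fold higher level with a counting interval of 11.7 to 2692 (limma adjusted p = 0.0209). It had 0.775 to 1.57 scaled CPM in the rnp-2 mutants and 0.0612 and 0.0395 in wildtype 1 and 2. In unspliced reads of all 3 genes mog-2(ok1221) was highest and the rnp-2 mutants came next. The unspliced level of rnp-3(ok1424) was just below both wildtype values at C04G2.10 and osm-9, and above both at best-25. In the compared libraries all reads of osm-9 were likewise at 1 listed site, so an unspliced RNA of the gene and another RNA across that site cannot be told apart. When 1 of the other 5 libraries was left out, 0 to 2 genes passed. With library size alone 3 genes passed, of which 0 were among these, and edgeR called the same 3 and DESeq2 2 of them. Of 12 ERGO-1 targets tested for unspliced reads 8 were lower in mog-2(ok1221), and of 15 F-box genes 10 were, with 0 that passed in either list.

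Among the 12 genes taken by rule for unspliced reads, the 6 largest differences in each direction over a read minimum, best-25 passed in the direct test and 10 passed with the block. F10E7.2 (chromosome II, 7122242 to 7124386) had 234 unspliced reads in mog-2(ok1221) and 39 in rnp-3(ok1424), or 6.86 and 1.32 scaled CPM. The rnp-2 mutants had 1.42 to 3.15 and the wildtype libraries 0.898 and 0.672 (log2 difference 2.01, SE 0.38, limma adjusted p = 0.0559). Its spliced reads were 1515 in mog-2(ok1221) and 1188 in rnp-3(ok1424), a log2 difference of 0.14. W03H9.2 had 15.4 scaled CPM unspliced in mog-2(ok1221) and 7.40 in rnp-3(ok1424), with 5.71 to 7.88 in the rnp-2 mutants and 4.41 and 3.53 in wildtype 1 and 2. B0250.8 had 12.6 scaled CPM in mog-2(ok1221) and 5.57 in rnp-3(ok1424), with 25.1 to 34.4 in the rnp-2 mutants and 6.32 and 6.45 in wildtype 1 and 2. Y53F4B.17 had 207 unspliced reads in mog-2(ok1221) and 58 in rnp-3(ok1424), at an intron the table assigns to it that lies outside its annotated span.

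The ERGO-1 target E01G4.5 (WBGene00008447, chromosome II, 13472401 to 13473995) had the opposite difference, which did not pass. It had 0.879 scaled CPM (30 reads) of unspliced small RNA in mog-2(ok1221) and 5.57 (164 reads) in rnp-3(ok1424). It had 0.581, 0.331 and 0.248 in rnp-2(mg582) 1, rnp-2(mg582) 2 and rnp-2(tm4058) 2, against 1.98 and 2.45 in wildtype 1 and 2 (log2 difference -2.14, SE 0.37, limma adjusted p = 0.0523). The rnp-3(ok1424) value was above both wildtype values, and that of mog-2(ok1221) was below both. Its spliced level, among the highest of the table, was 133 scaled CPM in mog-2(ok1221) and 176 in rnp-3(ok1424), against 151 and 220 in wildtype 1 and 2. The X-linked pseudogene F52G3.3 had 88 unspliced reads in mog-2(ok1221) and 286 in rnp-3(ok1424), 2.58 and 9.71 scaled CPM, with 5.88 to 11.4 in the rnp-2 mutants and 8.53 and 12.1 in wildtype 1 and 2. The F-box gene fbxb-37, at 54.99 scaled CPM in rnp-2(mg582) 2 and 4.65 in wildtype 1, had 7.77 in mog-2(ok1221) and 8.32 in rnp-3(ok1424), and the listed site with most of these reads also lies outside its annotated span.

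**Figure D4:**
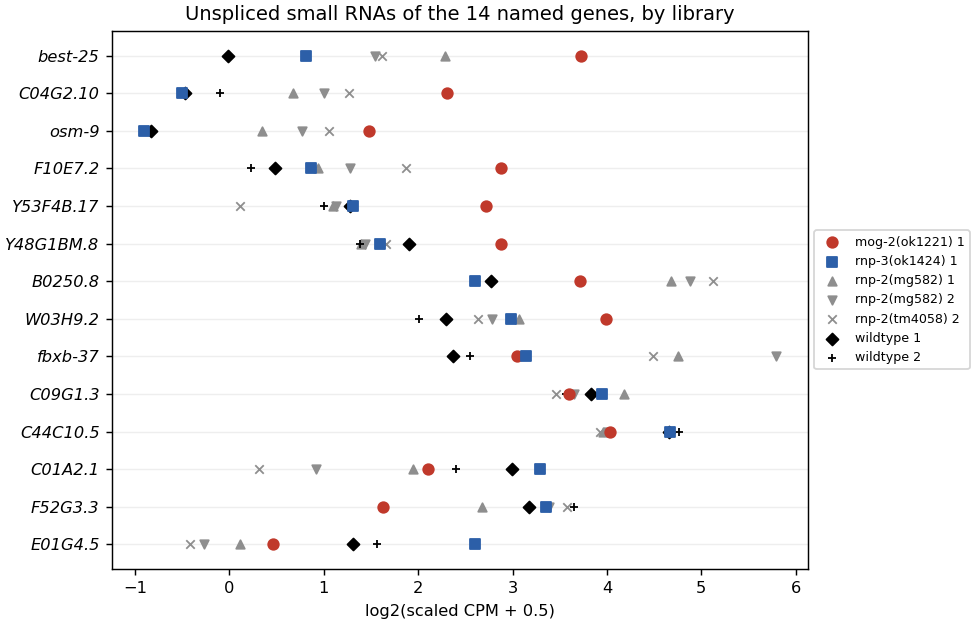
Unspliced small RNA level of 14 genes, the 12 named by rule and the others that passed, as log2(scaled CPM + 0.5), with 1 point for each of the 7 libraries. At the 3 uppermost genes mog-2(ok1221) is highest, and at E01G4.5 rnp-3(ok1424) is highest.

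The splice sites of the introns behind these differences are shown as the table lists them, with intron bases in capitals and exon bases in lower case, 5′ to 3′ on the strand of the gene. They were chosen as the introns with most unspliced reads of F10E7.2, W03H9.2, B0250.8 and E01G4.5, and those of anmt-1 and Y48G9A.6 described below. The C. elegans consensus begins GTAAGT at the donor and ends TTTCAG at the acceptor.
F10E7.2 donor: ggaaaGTTAGTTCAT
F10E7.2 acceptor: TAATCTTCAGgcaca
W03H9.2 donor: gaacgGTAAGTCAAT
W03H9.2 acceptor: GCGGCTTCAGaagcg
B0250.8 donor: ctccaGTACGAAAGT
B0250.8 acceptor: CAAATTTCAGggtaa
E01G4.5 donor: gcacaGTAAGTTTTT
E01G4.5 acceptor: TTCTTTCCAGtttct
anmt-1 donor: tagatGTAAGTTTTG
anmt-1 acceptor: TTAATTTCAGgtgaa
Y48G9A.6 donor: tagaaGTTAGTTGAC
Y48G9A.6 acceptor: AAACTTTCAGccgaa

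In WBcel235 these introns lie at chrII:7122295-7122341 (plus strand, F10E7.2), chrII:14143743-14143787 (minus, W03H9.2), chrV:20470386-20470431 (minus, B0250.8), chrII:13473528-13473571 (plus, E01G4.5), chrIII:8685517-8685835 (plus, anmt-1) and chrIII:2118640-2118693 (plus, Y48G9A.6). The F10E7.2 intron was 17.7% unspliced in mog-2(ok1221), 225 unspliced against 1044 spliced reads, and 4.37% in rnp-3(ok1424), 37 against 810. It was 6.30% to 11.5% unspliced in the rnp-2 mutants and 2.69% and 1.97% in wildtype 1 and 2. The W03H9.2 intron was 74.8% unspliced in mog-2(ok1221) and 54.1% in rnp-3(ok1424), with 86.1% to 94.7% in the rnp-2 mutants and 39.5% and 44.4% in wildtype 1 and 2. In both introns the order was rnp-3(ok1424) above wildtype and below mog-2(ok1221). The B0250.8 intron was 16.3% unspliced in mog-2(ok1221) and 11.9% in rnp-3(ok1424), with 29.1% to 41.9% in the rnp-2 mutants and 13.1% and 10.9% in wildtype 1 and 2. The rnp-2 mutants were thus by far the highest. The counting interval of mog-2(ok1221), 14.8 to 17.8, lay above those of rnp-3(ok1424), 10.2 to 13.8, and wildtype 1, 11.7 to 14.5.

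At most introns the unspliced share was close in the compared mutants, often because few or no reads were unspliced. Of 1176 introns of 691 genes with at least 20 reads in each of the compared libraries, 495 had no unspliced read in either. The median share was 0% in both libraries, which leaves little room for a wide difference at many introns. The unspliced share differed by at most 10 percentage points in 96.3% of the 1176. It was more than 10 points higher in mog-2(ok1221) at 30 introns and in rnp-3(ok1424) at 14. The mean share was 8.66% in mog-2(ok1221), 8.19% in rnp-3(ok1424) and 8.28% in wildtype 1. Mostly unspliced in both were 76 introns, 4 were so in mog-2(ok1221) alone and 0 in rnp-3(ok1424) alone. The intervals of the shares did not overlap at 21 introns (1.79%), 12 higher in mog-2(ok1221) and 9 in rnp-3(ok1424). In the test of the unspliced to spliced ratio, 0 of 594 introns passed (limma; 0.0%), with 34 at an unadjusted p under 0.05, 20 higher and 14 lower. The edgeR test also gave 0, with 16 at an unadjusted p under 0.05, and DESeq2 gave 1. With the replicate block 68 introns passed (11.4%), 33 higher and 35 lower. One read was worth 0.101 CPM in rnp-3(ok1424) and 0.0113 CPM in wildtype 2. The pseudocount of 0.5 CPM thus shrank ratios more in experiment 2, which adds to the spread of the pairs. With TMM-scaled CPM 0 passed too, with 84 at an unadjusted p under 0.05 (limma), 42 in each direction. That 0 introns passed, and the adjusted p of single introns, do not show that the mutants were alike.

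The acceptor motif TTTCAG, searched at the last 6 bases of the intron on the strand of the gene, ended 51.8% of the 1176 introns. It ended 36.7% of the 30 introns with a higher share in mog-2(ok1221), 50% of the 14 with a higher share in rnp-3(ok1424) and 26.3% of the 76 mostly unspliced in both. The donor motif GTAAGT, searched at the first 6 bases, began 18.5% of all, 20.0% of the 30, 21.4% of the 14 and 10.5% of the 76. The median intron length was 62.0 bases over all, 59.0 in the 30 and 53.5 in the 14. These are descriptions of small groups of introns.

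The largest difference in share was at Y20F4.4 (chrI:2040661-2041364, minus strand). The intron was 84.4% unspliced in mog-2(ok1221) (27 unspliced, 5 spliced reads; exact 95% interval 67.2 to 94.7) and 23.1% in rnp-3(ok1424) (9 and 30 reads; 11.1 to 39.3). It was 78.7%, 89.4% and 96.7% in rnp-2(mg582) 1, rnp-2(mg582) 2 and rnp-2(tm4058) 2, against 16.98% and 13.6% in wildtype 1 and 2. The mog-2(ok1221) value thus lay among those of the rnp-2 mutants and the rnp-3(ok1424) value near wildtype (limma adjusted p = 0.373). The intron of F08A8.5 had shares of 75.8% in mog-2(ok1221), 40.9% in rnp-3(ok1424), 81.8% to 94.4% in the rnp-2 mutants and 20.0% and 53.8% in wildtype 1 and 2, from 33 reads in mog-2(ok1221) and 22 in rnp-3(ok1424). At Y110A7A.21 the share was 90.0% in mog-2(ok1221) (233 unspliced, 26 spliced reads) and 58.4% in rnp-3(ok1424) (94 and 67 reads), with 38.5% to 69.6% in the rnp-2 mutants and 47.0% and 56.7% in wildtype 1 and 2. Here mog-2(ok1221) alone was high (limma adjusted p = 0.560).

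In the other direction, the E01G4.5 intron, which is 44 bases long, was 3.01% unspliced in mog-2(ok1221) (15 unspliced, 484 spliced reads; 1.69 to 4.91) and 22.3% in rnp-3(ok1424) (134 and 467 reads; 19.03 to 25.8). It was 4.96% to 6.45% in the rnp-2 mutants and 9.25% and 13.04% in wildtype 1 and 2, so rnp-3(ok1424) was above and mog-2(ok1221) below every other library (limma adjusted p = 0.775). This was the intron that passed with DESeq2, and it passed with the block but not with edgeR. Of the 134 reads in rnp-3(ok1424), 67 were at the donor and 67 at the acceptor end. The intron of anmt-1, a gene for an amine N-methyltransferase, was 68.3% unspliced in mog-2(ok1221) (125 and 58 reads) and 83.4% in rnp-3(ok1424) (126 and 25 reads). It was 70.8% to 77.1% in the rnp-2 mutants and 85.5% and 81.8% in wildtype 1 and 2, and all of its unspliced reads in the compared libraries were at the acceptor end. The Y48G9A.6 intron was 9.43% unspliced in mog-2(ok1221) and 36.4% in rnp-3(ok1424), with 6.25% to 9.76% in the rnp-2 mutants and 10.3% and 13.2% in wildtype 1 and 2, but rested on 53 and 22 reads in the compared libraries. Of the 12 introns named by rule, 11 could be fitted and 8 of these passed with the block.

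**Figure D5:**
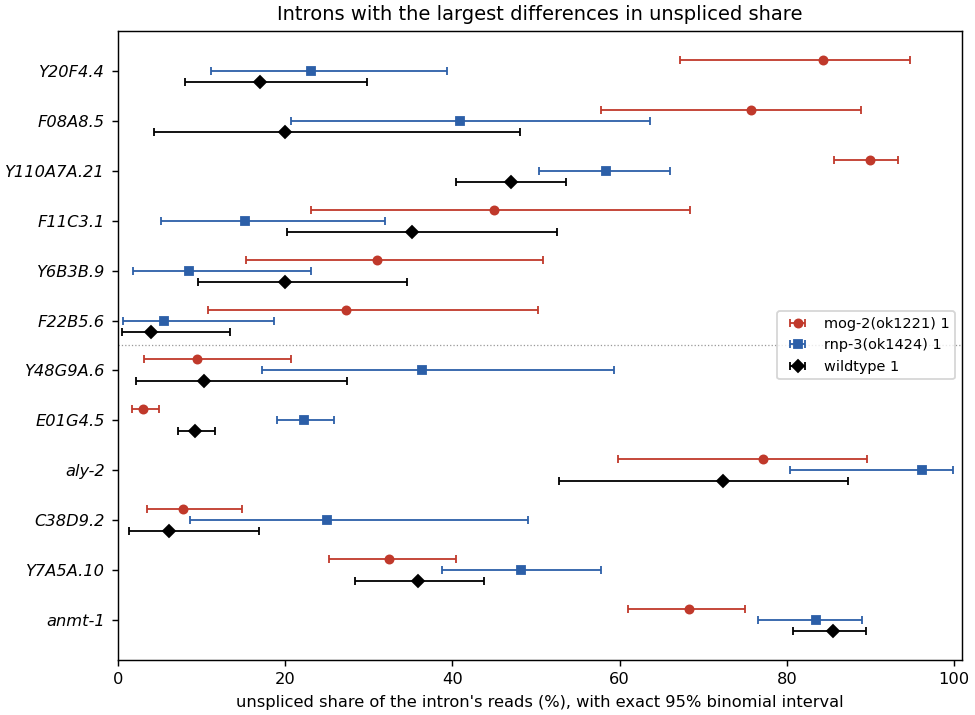
Unspliced share (%) of the reads of 12 introns, named by gene, in mog-2(ok1221) 1, rnp-3(ok1424) 1 and wildtype 1, with exact 95% binomial intervals; the dotted line parts introns higher in mog-2(ok1221) (above) from those higher in rnp-3(ok1424). The intervals of the compared mutants are apart at Y20F4.4, Y110A7A.21, E01G4.5 and anmt-1.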

How the data were processed

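The authors deposited CPM, counts scaled to the library total, for each intron end in 2 columns per library. EEJ was taken to mean exon-exon (spliced) and IEJ intron-exon (unspliced) junction, terms that the labels leave unexplained. The submitters' processing notes name STAR and SAMtools. How multi-mapped reads and strand were handled, the tool versions and the build stand as not given in the sources used here; overlapping genes, antisense genes and close copies cannot be told apart. The 14533 lines with values were used, and 24 without values were not analysed here. Lines reach 0.505 CPM in at least 1 column, so weaker junctions are not listed.

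Whole reads were recovered from the CPM steps (100% of values whole within 1e-06 reads). Of the lines, 98.1% match an annotated intron end of WBcel235, and coordinates are those of the table, 1-based. Lines were joined into 7678 introns. Within a gene, introns with nearly the same spliced reads in each library counted once. Their differences, summed over the libraries, were at most 5% of the larger total (at least 20 reads each). This left 7282 junctions in 3717 genes.

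The main test was limma 3.58.1 (R 4.3.3, trended empirical Bayes, Benjamini-Hochberg adjustment over all features) on log2(scaled CPM + 0.5), with 1 coefficient per genotype over 7 libraries and TMM factors of spliced reads from edgeR 4.0.16. The factors were 2.61 in mog-2(ok1221) and 2.97 in rnp-3(ok1424). They were 2.12 in rnp-2(mg582) 1 and 2.35 in wildtype 1. In experiment 2 they were 0.355 in rnp-2(mg582) 2, 0.0846 in rnp-2(tm4058) 2 and 0.859 in wildtype 2. Genes were kept by filterByExpr (minimum count 10, total 15). The ratio per intron used CPM as deposited and introns kept on unspliced reads; this filter was chosen after a fit with a filter on summed reads had been seen. A gene or intron passed at an adjusted p under 0.05. The edgeR quasi-likelihood test and DESeq2 1.42.0 on recovered reads were alternatives, and the scripts were tested on simulated data.

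Named spliced genes were the 10 largest differences per direction, those that passed first, among genes with at least 5 scaled CPM in the higher library and 30 reads over both; unspliced genes were the 6 largest by the same rule, and introns the 6 largest differences in share per direction with at least 20 reads in each library. Genes that passed outside the rule are named as well. For spliced reads, 1 gene that passed is counted but not reported here. Members and lists were chosen with earlier results of these data known. The titles' experiment number marks a shared experiment and so pairs wildtype 1 with rnp-2(mg582) 1, whose deviations from the genotype means correlated at 0.382 over genes; fits with it as a block stand beside the results they change.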

Additional observations from a re-analysis of the deposited data

How the results depend on the processing

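With the experiment as a replicate block the number of genes or introns that passed was 396 for spliced reads, 126 for unspliced reads and 68 for the ratio, against 9, 3 and 0 without it. For spliced reads, the 9 became 51 with DESeq2, 2 with library size alone, 19 with median-of-ratios size factors, 1 with a pseudocount of 0.1, 15 with a pseudocount of 1, 36 with a mean of at least 5 CPM (351 genes tested), 0 with no filter (limma; 647 at an unadjusted p under 0.05), and 0 to 0 with 1 library left out. For unspliced reads, the 3 became 238 with no filter (2278 genes tested), 1 with a mean of at least 5 CPM (30 tested) and 0 to 2 with 1 library left out. With library size alone 3 passed as well, of which 0 were among the first 3. For the ratio, the 0 became 1 with DESeq2, 1 with the donor end only, 12 with no filter, 10 with the filter on summed reads (added after seeing the data), and 0 to 4 with 1 library left out. Genes past 4-fold, 29 for spliced reads, were 583 with DESeq2 and 567 with edgeR, whose fold changes carry other or no pseudocounts, 77 with library size alone, 125 with a pseudocount of 0.1, 11 with a pseudocount of 1 and 12 with a mean of at least 5 CPM. They were 21 to 41 with 1 library left out. For unspliced reads, 5 became 125, 118, 14, 26, 2 and 1 in the same settings and 4 to 7 with 1 library left out. The cause was not tested beyond what fewer libraries, fewer genes and the pseudocount itself set.

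The unspliced share in mog-2(ok1221) and rnp-3(ok1424) was 3.94% and 3.48% at donor ends, 4.41% and 4.19% at acceptor ends, 7.82% and 7.22% with no merging, 8.83% and 8.13% without the 10 genes with most junction reads, and 0% and 0% as the median over introns. Library size alone moved the median log2 difference of all genes from 0.01 to -0.08. Of the named genes and introns, direction changed at fbxa-149, with a log2 difference of -0.151 with library size alone, -0.0632 with median-of-ratios size factors and -0.0451 to 0.0206 with 1 library left out, and at dlk-1, -0.0747 with library size alone. Neither passed in any of these. The ratio was tested only at the 594 introns with enough unspliced reads for the filter.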
